A study of Mus musculus with 8 samples.

Results

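Matrix metalloproteinases (MMPs), ADAMs, ADAMTS proteases and the tissue inhibitors of metalloproteinases (TIMPs) were examined in mouse muscle. Members were taken by the gene name on the array: every non-control probe named Mmp, Adam, Adamts or Timp with a number. This gave 79 genes on 153 probes, of 24700 named genes and 56605 probes in all. There were 23 MMP genes, 33 ADAM genes, 19 ADAMTS genes and 4 TIMP genes.

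The tissue was tibialis anterior, a fast-twitch muscle at the front of the lower leg, from male C57BL/6J mice at 14 weeks of age. One group of 4 samples is labelled control and the other group of 4 is labelled P. gingivalis, for oral administration of Porphyromonas gingivalis, a bacterium of the gum pocket, over 6 weeks. Both groups ate a high-fat diet, per the labels' protocols, and the bacteria were suspended in 100 µL of saline and given by feeding needle. Those protocols also name groups that occur in no sample title, and no title gives a diet. The sources used here give neither the dose nor what the controls received. The labels do not say outright that every sample came from its own mouse; this was assumed, and otherwise p-values measure only the spread between samples.

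A conflict between the deposited files bears on every difference below. The study's scanner files and its deposited value table of log2 signals assign the arrays to groups differently. Each of the 8 columns of the value table matched 1 scanner array (correlations of 0.833 to 0.88 over centred probes, next best at most 0.0784), but 4 of the 8 matched an array of the other group. In the value table, control 1, control 2, P. gingivalis 1 and P. gingivalis 2 form the control group. Each value-table group thus holds the scanner groups in equal numbers, and a difference between the scanner groups largely cancels in it. Values below follow the scanner files. Control 1, control 2, P. gingivalis 3 and P. gingivalis 4 are the 4 arrays on which both sources agree about the group. Differences on these are given for some of the members. All 8 arrays lay on 1 slide, the controls in row 1 and the P. gingivalis arrays in row 2, and an effect of the row and one of the group cannot be told apart. Before scaling, the 75th percentile of the signal ran from 275 to 306 on the control arrays and from 238 to 255 on the P. gingivalis arrays. Summed signals of 12 fast-fibre markers, on a linear scale relative to that percentile, were high on every array, as the tissue label says, and did not overlap between groups (7722 to 8509 in control and 8596 to 9117 in P. gingivalis muscle). Control 4 stood apart in 5 keratinocyte and hair markers, with a summed signal of 10.6 against 1.202 to 1.51 on the other arrays. The part of either in the differences below was not tested.

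MMPs are zinc proteases that cut collagens, laminins and other proteins of the extracellular matrix, and most are made as inactive precursors. ADAMs are membrane-bound relatives that release the outer parts of membrane proteins such as growth factors, receptors and Notch, and several ADAMs lack a working catalytic site. ADAMTS proteases are secreted and process procollagens and proteoglycans. TIMPs bind the active sites of these enzymes, and TIMP2 together with the membrane protease MMP14 also takes part in switching on MMP2, an enzyme known in muscle for work on the basement membrane around fibres.

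Most of the textbook collagenases and stromelysins gave little signal in this muscle. A gene was tested where Feature Extraction scored a probe of it as well above background on 4 or more arrays of the 8. This held for 46 of the 79 genes: 11 of 23 MMP genes, 17 of 33 ADAM genes, 14 of 19 ADAMTS genes and all 4 TIMP genes. Over the whole array it held for 15957 of 24700 named genes. Of the other 33 genes, 29 had no probe well above background on any array. These 29 included the collagenases Mmp1a and Mmp13, the stromelysin Mmp10, matrilysin (Mmp7) and the macrophage elastase Mmp12, and also Adam2 and Adam3, known from sperm. The remaining 4 (Mmp1b, Mmp27, Adam23 and Adam39) were well above background on some arrays, though on too few for the test. Of the 46 tested genes, 42 were well above background on all 8 arrays, and Adam5, Mmp3, Mmp8 and Mmp9 on fewer. In bulk tissue, fewer cells of a type and less RNA per cell cannot be told apart.

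The promoters of 7 of the 11 MMP genes that were not tested share a layout found in 1 of the 7 tested MMP genes, which is why these stretches are shown (counts over genes with a promoter). RefSeq promoter sequences (assembly GRCm38.p6, from 250 bases before to 50 bases after a transcript start) were found for 49 of the 79 members, and 4 motifs were searched on both strands. The capitals below mark TGANTCA, the letters bound by AP-1 (dimers of Fos and Jun proteins), followed by TATAAA, the core promoter box. The stretches lie on chromosome 9 within the MMP gene cluster, at chr9:7272471-7272507 for Mmp13, chr9:7502271-7502322 for Mmp10, chr9:7464060-7464122 for Mmp1a, chr9:7692019-7692073 for Mmp7 and chr9:7445768-7445824 for Mmp3, all on the plus strand.
Mmp13: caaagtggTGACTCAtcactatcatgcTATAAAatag
Mmp10: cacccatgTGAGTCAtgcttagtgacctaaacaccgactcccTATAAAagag
Mmp1a: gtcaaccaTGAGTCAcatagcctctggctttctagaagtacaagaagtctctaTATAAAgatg
Mmp7: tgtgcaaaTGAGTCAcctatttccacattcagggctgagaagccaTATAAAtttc
Mmp3: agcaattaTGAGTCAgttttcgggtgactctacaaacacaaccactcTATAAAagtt

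The AP-1 letters began between 19 and 48 bases before the core box in 8 MMP genes, which besides these 5 are Mmp1b, Mmp12 and Mmp20. With AP-1 letters at most 50 bases before the box counted, on the strand of the gene, the pair stood in 8 of 18 MMP genes with a promoter (44.4%), in 0 of 17 ADAM, 0 of 10 ADAMTS and 0 of 4 TIMP genes, and in 53 of 27025 genes of the whole RefSeq table (0.196%). All 8 lie in the cluster of 10 MMP genes spanning 417 kb of chromosome 9 (7282762 to 7699535 by probe position, mm9), so these promoters may share a sequence origin. Of the 10 clustered genes only Mmp3 and Mmp8 were tested, and Mmp3 was well above background on 2 control and 2 P. gingivalis arrays.

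Over all members with a promoter, the core box TATAAA was found in 4 of 29 tested genes (13.8%) and 10 of 20 genes not tested (50%), against 15.7% of all genes. The AP-1 letters TGANTCA were found in 10.3% of tested and 50% of untested members, against 8.97% of all genes. The GC box GGGCGG, which is bound by Sp1, ran the other way, with 65.5% of tested and 20% of untested members against 38.2% of all genes. The E-box CANNTG, the site type of the myogenic factors, was about as frequent in tested members (72.4%) as in untested ones (70%) and in all genes (75%). The median ratio of observed to expected CpG was 0.577 in tested and 0.102 in untested members, against 0.415 over all genes. Of the 10 untested members with the core box, 7 were the clustered MMP genes that hold the pair. The same 7 were among the 10 untested members with AP-1 letters. These promoters may share a sequence origin, so the contrasts in both motifs rest largely on that cluster. A match describes letters only.

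**Figure D1:**
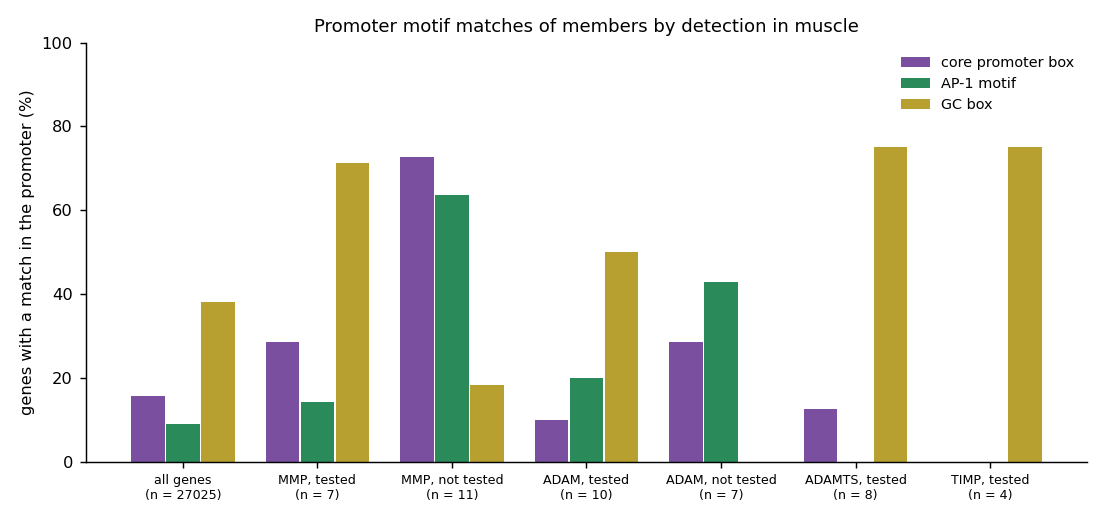
Share of genes (%, vertical axis) with a match to the core promoter box, the AP-1 motif or the GC box in the RefSeq promoter, for all genes and for members by family and by whether they were tested in muscle. The MMP genes that were not tested (n = 11) had the core box in 72.7% and the AP-1 motif in 63.6%, and the tested MMP genes (n = 7) in 28.6% and 14.3%; classes with under 4 genes are not drawn.

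Between the groups, no member and no other probe passed adjustment. With limma (Benjamini-Hochberg over all tested probes), 0 of 31649 tested probes (0%) had an adjusted p under 0.05, and 3544 (11.2%) had an unadjusted p under 0.05. With each gene represented by its brightest tested probe, 7 of the 46 member genes (15.2%) had an unadjusted p under 0.05, beside 10.7% of all 15957 tested genes. Mmp2, Adamts2 and Adam5 had higher signal in P. gingivalis muscle (3 of 46; 4.86% of all genes lay on that side), and Adam32, Adamts1, Timp4 and Adam1a lower signal (4 of 46; 5.83% of all genes). In 5 member genes (10.9%) the 4 values of each group did not overlap, against 7.08% of all genes. Mmp2 lay above control (3.25% of all genes did), and Adam32, Adamts1, Timp4 and Adam1a below it (3.83%). The member differences had a median of 0.02 on the log2 scale (28 genes higher and 18 lower), beside -0.01 over all tested genes, of which 45.7% were higher. Leaving out control 2 gave 23 members higher and 23 lower, as did the 4 arrays of agreed group, and leaving out P. gingivalis 1 gave 24 and 22. Control 2 was the lowest array for 14 of 45 members measured on all arrays (16.1% of all genes), and P. gingivalis 1 the highest for 13 (15.3%). The split moved with scaling too: centring arrays on the median gave 31 members higher and 15 lower (55.5% of all genes higher), and normexp background correction 33 and 13 (56.1%).

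The count of 7 also depended on which source supplied the groups. Grouped as in the value table, 4 members had an unadjusted p under 0.05 (3.52% of all genes), and none of them was among the 7. The 7 were picked by the scanner groups, which those groups mix equally, so their loss there could not show which grouping is right. On the 4 arrays of agreed group, 11 members had such an unadjusted p (8.08% of all genes), 5 of them among the 7. All 7 kept their direction there, but these arrays are part of the 8 that picked them. For the 5 members without overlap between groups the direction could not change. Processing of the signal moved the count as well, with 11 members after median centring (9.91% of all genes), 16 after normexp correction (27%) and 13 in the value table with its columns matched to the arrays (11%). It was 12 without control 3 (11.8%) and 8 with the replicate number as a block (9.54%).

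**Figure D2:**
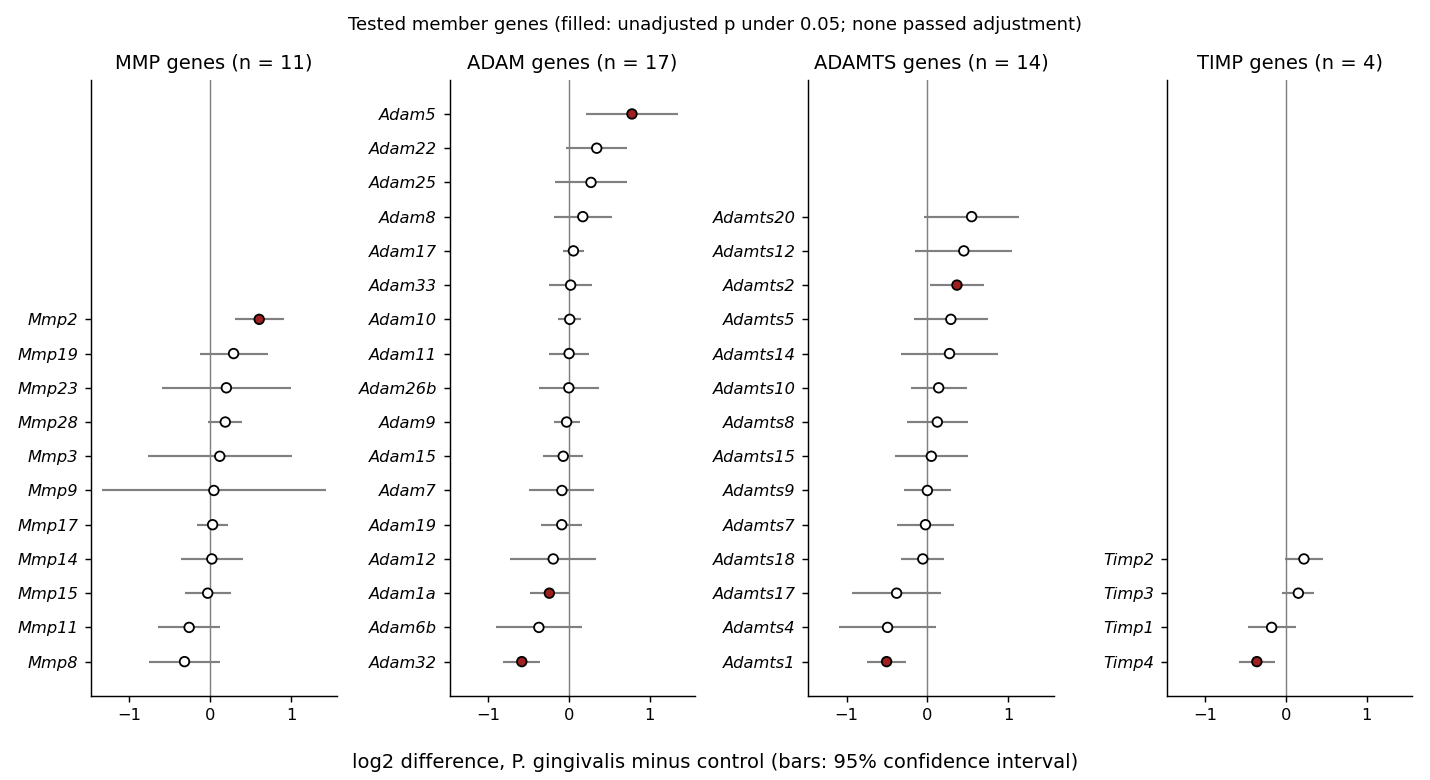
Log2 difference between P. gingivalis and control muscle (horizontal axis) with its 95% confidence interval for each of the 46 tested members, by family. Filled points mark the 7 genes at an unadjusted p under 0.05, and the intervals of the other 39 genes, with differences from -0.49 to 0.55, include 0.

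The inhibitors did not move together. All values that follow are log2 signals less the array's 75th percentile, with arrays 1 to 4 of a group in order and the SD over its 4 arrays. Timp4, the TIMP best known from heart and skeletal muscle, read 3.44, 3.47, 3.35 and 3.67 in control (3.48 ± 0.14) and 3.07, 2.96, 3.21 and 3.26 in P. gingivalis muscle (3.13 ± 0.14). Each P. gingivalis array lay below each control array. The difference was -0.36 (SE 0.096), or 0.779-fold with a 95% interval of 0.669 to 0.908 (limma unadjusted p = 0.00535, adjusted p = 0.324). The 2 dimmer Timp4 probes gave -0.37 (adjusted p = 0.323) and -0.17 (adjusted p = 0.774), so all 3 probes pointed the same way. The Timp4 difference was -0.22 on the 4 arrays of agreed group and 0.14 with the groups of the value table.

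Timp2 and Timp3 had somewhat higher signal in P. gingivalis muscle without reaching an unadjusted p of 0.05 on their brightest probes. Timp2, the inhibitor that assists MMP2 activation, read 5.24, 4.95, 5.39 and 5.21 in control and 5.56, 5.36, 5.45 and 5.31 in P. gingivalis muscle. The groups overlapped, through control 3, and the difference was 0.22 (SE 0.10, limma adjusted p = 0.458). The second Timp2 probe, shown because it spans a splice junction and so reads spliced RNA, lies on the minus strand between 118171964 and 118178741 of chromosome 11 (mm9) and gave 0.18 (adjusted p = 0.553).
Timp2 probe: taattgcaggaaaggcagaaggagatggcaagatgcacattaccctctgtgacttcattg

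Timp3 is bound to the matrix and inhibits ADAM17 and several ADAMTS enzymes besides MMPs. Its brightest probe read 3.995, 4.04, 4.27 and 4.12 in control and 4.30, 4.39, 4.11 and 4.22 in P. gingivalis muscle, with overlapping groups (difference 0.15, SE 0.087, limma adjusted p = 0.532). A dim probe, placed in another part of the gene, gave 0.38 with groups that did not overlap (adjusted p = 0.329). Timp1, the inhibitor most often described as inducible in inflammation and fibrosis, read -1.64, -1.69, -1.58 and -1.84 in control and -1.63, -1.66, -2.02 and -2.15 in P. gingivalis muscle. Its groups overlapped, with P. gingivalis 1 and 2 at the control level (difference -0.18, SE 0.13, limma adjusted p = 0.628). On the 4 arrays of agreed group the Timp1 difference was -0.42 (unadjusted p = 0.0137, adjusted p = 0.516).

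**Figure D3:**
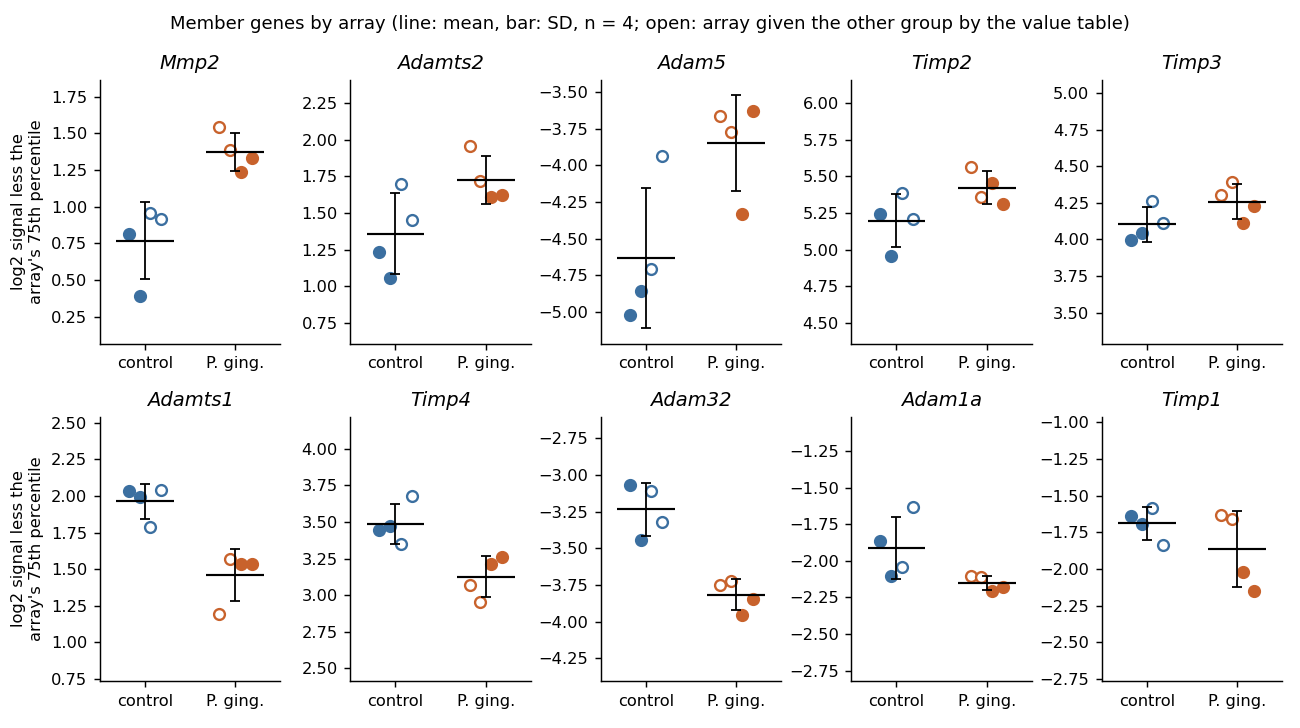
Log2 signal less the array's 75th percentile (vertical axis, own range in each panel) for 10 members in control and P. gingivalis muscle, 1 point per array, with the mean as a line and the SD as a bar (n = 4). Open points are arrays that the value table gives the other group; Mmp2, Adamts1, Timp4, Adam32 and Adam1a show no overlap between groups.

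Among the MMPs, the gelatinase Mmp2 stood apart. MMP2 (gelatinase A) cuts denatured collagen and basement membrane collagen and is made mainly by fibroblasts. Mmp2 read 0.82, 0.39, 0.96 and 0.91 in control (0.77 ± 0.26) and 1.54, 1.39, 1.24 and 1.33 in P. gingivalis muscle (1.38 ± 0.13). Every P. gingivalis array exceeded every control array, and control 2 was the lowest. The difference was 0.61 (SE 0.13), or 1.52-fold with a 95% interval of 1.23 to 1.88 (limma unadjusted p = 0.00165, adjusted p = 0.319). The single Mmp2 probe maps to chr8:95376840-95376899 (mm9, plus strand). The Mmp2 difference was 0.68 on the 4 arrays of agreed group but 0.08 with the groups of the value table.

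Mmp9, the other gelatinase, is typical of neutrophils and macrophages and was close to background. It was well above background on 1 control and 3 P. gingivalis arrays. Its tested probe, shown because 1 array decides the result, spans a splice junction between 164779091 and 164780300 of chromosome 2 (mm9, plus strand).
Mmp9 probe: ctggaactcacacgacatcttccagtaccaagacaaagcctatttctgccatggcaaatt

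It read -5.22, -4.74, -4.96 and -4.76 in control and -3.98, -4.42, -4.15 and -6.96 in P. gingivalis muscle. P. gingivalis 4 was below every control array and the other 3 P. gingivalis arrays were above every one. The Mmp9 difference was 0.05 (SE 0.60, limma adjusted p = 0.986). Without P. gingivalis 4 it was 0.74 (unadjusted p = 0.00158, adjusted p = 0.418), and under the value-table grouping -0.62. On the 4 arrays of agreed group, which include P. gingivalis 4, it was -0.57. Of 11 neutrophil markers, Cxcr2, Ltf and Ngp were well above background on no array. The calprotectin genes S100a9 and S100a8 differed by -2.93 (SE 0.80, limma adjusted p = 0.329) and -3.42 (SE 0.97, adjusted p = 0.329), and the protease Elane by 0.36 (SE 0.081, adjusted p = 0.323). The S100a9 and S100a8 groups overlapped, with control SDs of 1.76 and 1.85. S100a8 was well above background on 4 control and 2 P. gingivalis arrays. Csf3r, Mpo, Ly6g and Camp differed by -0.15, -0.14, -0.10 and -0.04. The summed signal of the 11, most of it from Csf3r, ran from 52.4 to 59.7 in control and from 45.5 to 53.4 in P. gingivalis muscle. For 10 macrophage markers the sums ran from 40.9 to 46.5 and from 45.3 to 57.4. The part of either cell type in Mmp9 was not tested.

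The membrane-type MMPs, which act at the cell surface, differed little. Mmp14, the activator of MMP2, read -2.92, -3.47, -2.98 and -3.24 in control and -2.72, -3.23, -3.33 and -3.25 in P. gingivalis muscle, with full overlap. The Mmp14 difference was 0.02 (SE 0.17, limma adjusted p = 0.976). Mmp15 and Mmp17 differed by -0.03 and 0.03, and Mmp16, Mmp24 and Mmp25 were not tested.

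The remaining tested MMPs had differences between -0.32 and 0.29, none with an unadjusted p under 0.05. Mmp28 (epilysin), a secreted MMP of resting tissues, read 0.11, -0.30, -0.15 and -0.21 in control and 0.03, 0.11, -0.01 and 0.06 in P. gingivalis muscle. Only control 1 reached the P. gingivalis range. The Mmp28 difference was 0.19 (SE 0.091, limma adjusted p = 0.481), and without control 1 it was 0.27 (unadjusted p = 0.00553). Mmp11 (stromelysin 3) read -0.77, -1.30 and -0.86 on control 1, 3 and 4 and -1.29, -1.29, -1.44 and -0.93 in P. gingivalis muscle. Its control 2 spot was left out as an outlier, so the difference of -0.26 (SE 0.16, adjusted p = 0.580) rests on 3 control arrays. Mmp8, the neutrophil collagenase, differed by -0.32, Mmp19 by 0.29, Mmp23 by 0.20 and Mmp3 by 0.12.

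Among the ADAMTS proteases, Adamts1 and Adamts2 differed in opposite directions. ADAMTS1 cuts the proteoglycans versican and aggrecan and binds the growth factor VEGF. Adamts1 read 2.03, 1.99, 1.78 and 2.04 in control (1.96 ± 0.12) and 1.19, 1.57, 1.54 and 1.53 in P. gingivalis muscle (1.46 ± 0.18). All P. gingivalis arrays lay below all control arrays, P. gingivalis 1 the furthest. The difference was -0.50 (SE 0.10), or 0.705-fold with a 95% interval of 0.598 to 0.832 (limma unadjusted p = 0.00113, adjusted p = 0.309). The single Adamts1 probe maps to chr16:85795044-85795103 (mm9, minus strand). The difference was -0.48 on the 4 arrays of agreed group and 0.025 with the groups of the value table.

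Adamts1 was the 1 tested ADAMTS gene with a promoter whose promoter held the core box. Its box, in capitals, begins 32 bases before the RefSeq start, and no AP-1 letters lie in the window. The stretch is chr16:85803110-85803175 (GRCm38.p6, minus strand).
Adamts1: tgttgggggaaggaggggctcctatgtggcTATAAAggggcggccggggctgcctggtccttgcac

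ADAMTS2 removes the amino-terminal propeptide of fibrillar procollagens. Adamts2 read 1.23, 1.06, 1.70 and 1.45 in control (1.36 ± 0.27) and 1.96, 1.72, 1.61 and 1.62 in P. gingivalis muscle (1.73 ± 0.16). Control 3 reached into the P. gingivalis range. The difference was 0.37 (SE 0.15), or 1.29-fold with an interval of 1.03 to 1.62 (limma unadjusted p = 0.0338, adjusted p = 0.419). The unadjusted p was over 0.05 without P. gingivalis 1 (0.0892), P. gingivalis 2 (0.0604), control 1 (0.0828) or control 2 (0.0857). Under the value-table grouping the difference was 0.10, and a second, dimmer probe gave 0.05. Adamts14, an enzyme of the same procollagen class, differed by 0.27 (limma adjusted p = 0.708), and Adamts3 was not tested.

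The other aggrecanase-group members went both ways without reaching an unadjusted p of 0.05. Adamts4, an aggrecanase induced by inflammatory cytokines, read -2.82, -3.91, -3.37 and -3.03 in control and -3.32, -3.78, -3.76 and -4.23 in P. gingivalis muscle. The groups overlapped through control 2 and 3 (difference -0.49, SE 0.26, limma adjusted p = 0.510), and with normexp correction the Adamts4 difference was 0.01. Adamts20, known for its role in pigment cell migration, read -4.01, -4.56, -3.83 and -3.72 in control and -3.36, -3.28, -3.13 and -4.15 in P. gingivalis muscle. P. gingivalis 4 was the array that overlapped the controls (difference 0.55, SE 0.26, adjusted p = 0.461). Summed signals of 5 melanocyte markers, at 0.366 to 0.458 in control and 0.715 to 0.743 in P. gingivalis muscle, did not overlap. Tyrp1 was well above background on no array. Of the 3 markers tested singly, 2 were higher and 1 lower, and 1 had groups without overlap (7.08% of all genes did). The part of these markers in Adamts20 was not tested. Adamts8 read 1.97, 1.75, 1.39 and 2.17 in control and 1.92, 2.15, 1.74 and 1.97 in P. gingivalis muscle, a difference of 0.12 (SE 0.17, adjusted p = 0.801). Adamts5, Adamts9 and Adamts15 differed by 0.29, 0.00 and 0.05.

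The cartilage-matrix (COMP) cleaving enzymes Adamts7 and Adamts12 differed by -0.02 and 0.45, and Adamts10, Adamts17 and Adamts18 by 0.14, -0.38 and -0.06, all with overlapping groups. Adamts13, the protease of von Willebrand factor, was not tested.

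The ADAMs that shed signalling molecules in most tissues were nearly level between groups. ADAM10 is the main protease releasing Notch, and ADAM17 releases TNF and ligands of the EGF receptor. Adam10 read 1.22, 1.23, 1.33 and 1.34 in control and 1.28, 1.38, 1.28 and 1.23 in P. gingivalis muscle, a difference of 0.01 with a 95% interval of 0.912 to 1.11 as a fold. A second Adam10 probe near background gave 0.45 without overlap (limma unadjusted p = 0.0141, adjusted p = 0.362), so the 2 probes did not tell the same story. Adam17 read 0.29, 0.33, 0.36 and 0.33 in control and 0.39, 0.46, 0.40 and 0.29 in P. gingivalis muscle, a difference of 0.06 with a fold interval of 0.948 to 1.14. Its 2 dimmer probes gave -0.12 and -0.43.

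Adam9, Adam15 and Adam19 belong to the catalytically active ADAMs and are widely expressed. Adam9 read 3.92, 3.69, 3.75 and 3.79 in control and 3.85, 3.75, 3.68 and 3.77 in P. gingivalis muscle (difference -0.03, SE 0.070, limma adjusted p = 0.910). Adam15 read 3.01, 2.97, 3.13 and 3.22 in control and 3.30, 2.93, 2.91 and 2.91 in P. gingivalis muscle, where P. gingivalis 1 was the highest array of all and the other 3 the lowest. The Adam15 difference was -0.07 (SE 0.11, adjusted p = 0.833). Adam19 and Adam12, which have roles in muscle development and regeneration, differed by -0.09 and -0.19. Adam22, a family member without protease activity that is known from synapses, read -3.19, -3.56, -3.33 and -3.18 in control and -2.93, -2.92, -3.40 and -2.61 in P. gingivalis muscle. Its groups overlapped through P. gingivalis 3 (difference 0.35, SE 0.17, adjusted p = 0.471).

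The 3 ADAM genes at an unadjusted p under 0.05 are known mainly from testis and sperm, and all 3 read below the 75th percentile of every array. Adam32 read -3.07, -3.44, -3.11 and -3.32 in control (-3.23 ± 0.18) and -3.75, -3.72, -3.95 and -3.84 in P. gingivalis muscle (-3.82 ± 0.10). The groups did not overlap. The difference was -0.58 (SE 0.10), or 0.668-fold with an interval of 0.570 to 0.784, with the lowest p of the 46 (limma unadjusted p = 0.000352, adjusted p = 0.309). Its size rested on the background treatment: with normexp correction the Adam32 difference was -0.06, and in the value table with matched columns -0.38. With the groups of the value table it was -0.06. The tested Adam32 probe maps to chr8:25946632-25946691 (mm9, minus strand), and its 3 other probes were well above background on no array.

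Adam5 lies in the same group of 5 neighbouring ADAM genes on chromosome 8 (25712756 to 26060310, mm9) and pointed the other way. It read -5.02, -4.86, -4.71 and -3.94 in control and -3.66, -3.77, -4.33 and -3.63 in P. gingivalis muscle, and was well above background on 2 control and 4 P. gingivalis arrays. Control 4 overlapped the P. gingivalis range (difference 0.78, SE 0.25, limma unadjusted p = 0.0136, adjusted p = 0.360), and with normexp correction the Adam5 difference was 0.30. Control 4, the array high in keratinocyte markers, was the highest control for Adam5, Adam1a, Timp4 and, narrowly, Adamts1 (2.04 against 2.03 on control 1). Without control 4 the differences were 1.01 for Adam5, -0.15 for Adam1a and -0.30 for Timp4. For Adamts1, leaving out any single array gave differences between -0.564 and -0.415. Of the rest of that cluster, Adam9 is given above and Adam3 and Adam18 were not tested. Adam1a read -1.87, -2.10, -2.04 and -1.63 in control (-1.91 ± 0.21) and -2.11, -2.11, -2.20 and -2.18 in P. gingivalis muscle (-2.15 ± 0.049). The Adam1a groups met without overlap, control 2 lying almost at the P. gingivalis level (difference -0.24, SE 0.10, unadjusted p = 0.0487, adjusted p = 0.445). Its unadjusted p was over 0.05 without P. gingivalis 1 (0.0664), 2 (0.0707), 3 (0.101) or 4 (0.0943) and without control 1 (0.0994) or 4 (0.0991), and with normexp correction the difference was -0.09. Summed signals of 8 testis germ cell markers ran from 0.320 to 0.389 in control and from 0.289 to 0.393 in P. gingivalis muscle, and Acrv1, Ddx4 and Prm1 were well above background on no array.

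**Figure D4:**
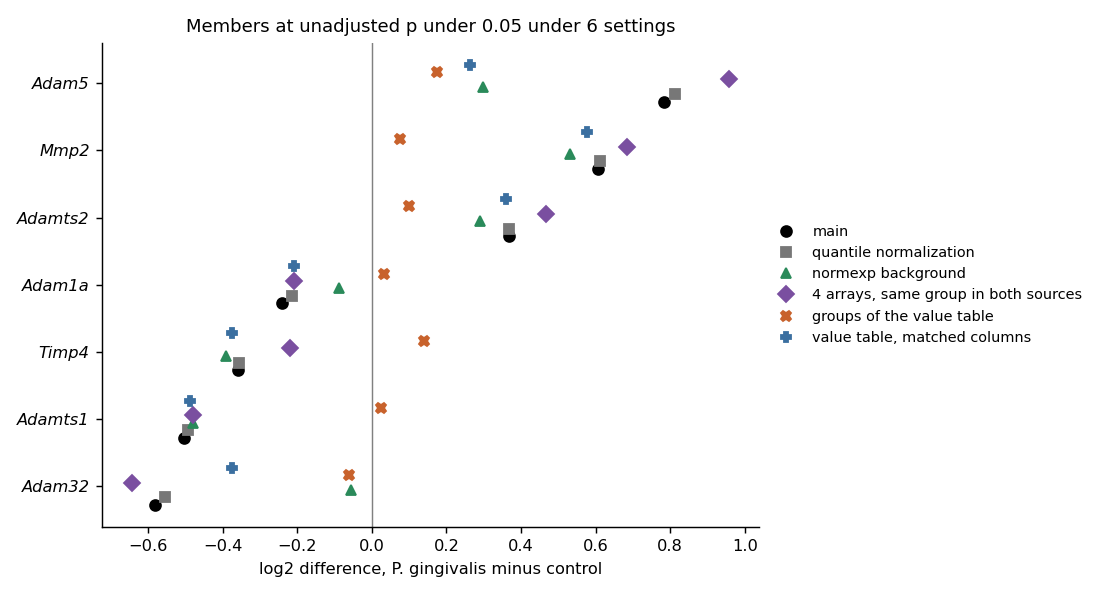
Log2 difference between P. gingivalis and control muscle (horizontal axis) for the 7 members at an unadjusted p under 0.05, under 6 settings marked by symbol. Mmp2 stays above 0 and is at 0.08 with the groups of the value table, and Adamts1 and Timp4 are below 0 except with those groups, at 0.025 and 0.14; Adam32 is at -0.06 with normexp correction.

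Of the 15 member genes with more than 1 tested probe, 12 had all probes on 1 side of 0. Adam15, Adam17 and Adamts9 did not. Adamts9 is an example of the spread: its brightest probe gave 0.00, while a dimmer one gave -0.43 (limma unadjusted p = 0.0215, adjusted p = 0.386).

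Protease and inhibitor were also set against each other within each array, as a description with no test. The log2 signal of Mmp2 less that of Timp2 was -4.43, -4.57, -4.43 and -4.30 in control and -4.02, -3.97, -4.22 and -3.98 in P. gingivalis muscle. The groups did not overlap and differed by 0.38. Adamts1 less Timp3 was -1.96, -2.05, -2.48 and -2.08 in control and -3.11, -2.82, -2.58 and -2.69 in P. gingivalis muscle, a difference of -0.66 without overlap. Mmp2 and Adamts1 already had groups without overlap by themselves, so these ratios are not separate evidence. For Mmp14 and Timp2 (-0.20), Mmp9 and Timp1 (0.22), and Adam17 and Timp3 (-0.10) the groups overlapped. Only the change between groups can be read from these values, since 2 probes give no common level.

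Genes around the proteases were counted from lists of their own, none with an adjusted p under 0.05 by limma. Of 26 tested matrix proteins that these proteases cut, 25 had higher signal in P. gingivalis muscle, with a median of 0.29, and 10 (38.5%) had an unadjusted p under 0.05, 9 of them higher. Over all tested genes 45.7% were higher, the median was -0.01 and 10.7% had such a p. On the 4 arrays of agreed group 25 were higher and 7 had such a p (8.08% of all genes), and under the value-table grouping 23 were higher (median 0.07) and 0 had such a p (3.52% of all genes). Lum, a small collagen-binding proteoglycan, differed by 0.65 (SE 0.15), and the fibrillar collagen Col3a1 by 0.94 (SE 0.26). Col15a1, a basement membrane collagen, was the single one lower (-0.72, SE 0.20) and was well above background on 4 control arrays and 1 P. gingivalis array. With normexp correction 26 of these matrix genes were higher and 0 lower (56.1% of all genes higher). Summed signals of 7 tendon markers ran from 19.9 to 29.1 in control and from 29.8 to 36.9 in P. gingivalis muscle without overlap, those of 7 smooth muscle and pericyte markers from 317 to 348 and from 356 to 390, also without overlap, and those of 10 fibroblast markers from 266 to 335 and from 316 to 368. Most of the tendon sum came from Thbs4, and most of the smooth muscle and pericyte sum from Acta2. Taken singly, 0 of 6 tested tendon genes and 1 of 7 smooth muscle and pericyte genes had groups without overlap (7.08% of all genes). Each of these marker genes was well above background on some array. Several of them are matrix genes too (Lum, Dcn, Fmod, Comp, Thbs4 and Col15a1), and the part of these cell types in Mmp2, Adamts2 or the collagens was not tested.

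Membrane proteins that ADAMs shed, together with Vwf, went both ways. Of 28 tested, 10 (35.7%) had an unadjusted p under 0.05, 3 higher and 7 lower in P. gingivalis muscle, with a median of -0.07, beside 10.7% of all genes (4.86% higher and 5.83% lower). The count was 3 on the 4 arrays of agreed group (8.08% of all genes) and 2 under the value-table grouping (3.52%). The lowest p-values were those of the adhesion molecule Icam1 (-0.58, SE 0.14), the VEGF receptor Kdr (-0.59, SE 0.15) and the Notch ligand Dll1 (-0.53, SE 0.18). Summed signals of 8 endothelial markers, of which Kdr and Vwf are 2, overlapped between groups (28.1 to 34.3 in control and 26.5 to 31.1 in P. gingivalis muscle).

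All 15 tested inducers of protease transcription had lower signal in P. gingivalis muscle, with a median of -0.15, and 3 (20%) had an unadjusted p under 0.05, beside 10.7% of all genes. Of all genes 45.7% were higher in this setting and 55.5% after median centring. Of the 15, 14 were lower after median centring and 12 on the 4 arrays of agreed group, but 6 under the value-table grouping. The 3 genes were the AP-1 subunits Junb (-0.28, SE 0.066) and Fosb (-0.56, SE 0.17), and the growth factor Tgfb1 (-0.26, SE 0.094). Of 22 tested activators, inhibitors and carriers, 2 (9.09%, near the 10.7% of all genes) had an unadjusted p under 0.05, both lower. They were Furin, the convertase that activates many of these proteases (-0.13), and Rhbdf2, a partner of ADAM17 (-0.20). Tspan5, one of the tetraspanins that escort ADAM10, was next at 0.26. After median centring 0 of the 22 had such a p on the lower side and 3 on the higher side (9.91% of all genes over both sides). Among 16 relatives outside the families, 2 (12.5%, also near the 10.7% of all genes) had an unadjusted p under 0.05, both higher. They were Pcolce, which speeds procollagen processing (0.31), and Adamtsl2, an ADAMTS-like protein without protease activity (0.62). The endothelin-converting enzyme Ece1 followed at -0.22.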

How the data were processed

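Each scanner file holds the authors' deposited spot intensity from 1 Cy3 array (59305 non-control spots, 200 ng of RNA labelled), made with Agilent Feature Extraction (per the file headers 11.0.1.1, and 11.1 in the submitters' processing notes). Per the file headers this intensity is background-subtracted and detrended within an array; no step between arrays is recorded. The deposited value table (log2 signals, 24764 probes) has column medians of 7.357 to 7.374, and its scaling and centring stay unknown. Its columns stand in an order that follows the slide positions of the matched arrays.

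The log2 intensity was scaled by subtracting the 75th percentile of the array's non-control spots, spots flagged as outliers were left out, and spots of 1 probe were averaged. A probe entered the test if well above background on 4 or more arrays; lmFit and eBayes of limma 3.58.1 (R 4.3.3) were run without covariates and adjusted over all 31649 such probes. A gene is its tested probe of highest mean. The procedure was tested on simulated data, with changes larger than any member difference in the main setting. It does not show how well changes of the sizes seen here are recovered. On each array 56.3% to 59.3% of spots exceeded background clearly, none was saturated, and arrays correlated at 0.9909 to 0.9949. Array number limits the precision. Figures used matplotlib 3.10.9.

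Members and lists were chosen with earlier results of these data known. Array values are given for the TIMPs, the 3 genes of highest mean in each other family, the 12 members of lowest p, and Mmp2, Mmp9, Mmp14, Adam10 and Adam17, 22 genes in all. From each list the 3 of lowest p are named, and of the neutrophil markers all those tested. A planned split of members by zinc-binding motif in the protein was not analysed here. Alternatives were other scalings, background and filters, the value table and its groups, a replicate block and leaving out each array.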

Additional observations from a re-analysis of the deposited data

Results flagged for a closer look

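For the 22 members given by array, 43 groups of 4 arrays were examined (not the control group of Mmp11, which has 3 values) for an array far from the rest, by the gap to the nearest array divided by the group's range, against Dixon's 95% critical value. It was exceeded in 4. Mmp9 on P. gingivalis 4 read -6.96, where the nearest P. gingivalis array read -4.42. Adam15 on P. gingivalis 1 read 3.30, with the next at 2.93. Adamts1 on control 3 read 1.78 with the next at 1.99, and on P. gingivalis 1 it read 1.19 with the next at 1.53. Chance exceeds this value in about 5% of groups.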

How the results depend on the processing

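The main settings gave 0 probes past adjustment and 7 members at an unadjusted p under 0.05. Probes past adjustment numbered 2 with an intensity trend, 2 with no filter, 18 with normexp and 1 in the value table with matched columns. Members at p under 0.05 numbered 11 with median centring (9.91% of all genes), 16 with normexp (27%), 13 in the value table with matched columns (11%), 11 on the 4 arrays of agreed group and 4 with the groups of the value table. Leaving out single arrays gave 6 to 12 members, with 12 without control 3 (11.8% of all genes), and 0 probes past adjustment each time. Grouped as in the value table, the differences turned for Timp4 (0.14), Adamts1 (0.025) and Adam1a (0.032). Under the value table's own labels they turned for Timp4 (0.14), Adamts1 (0.037), Adam1a (0.011) and Adam5 (-0.056). Both use groups that mix the scanner groups equally, so such turns could not show which grouping is right. The cause was not tested.

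Same-numbered arrays correlated at 0.0069 to 0.0629 in their deviations, and differently numbered ones at -0.13 to 0.134. This gave no sign that the numbers pair the samples, but low correlations could not exclude it. With the replicate number as a block, 8 members had p under 0.05 (9.54% of all genes) and 0 probes passed adjustment. Scaling moved the median of all genes by at most 0.04. Probes near background are the least certain, as the values of Adam32, Adam5, Adamts4 and Mmp9 show, and 33 members had too little signal to compare.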
